A study of Mus musculus with 11 samples.

Results

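Pdia4, a disulfide isomerase of the endoplasmic reticulum (ER), had lower normalized counts in every library of mice without Langerhans cells (LCs) than in every wild type (WT) library of the same population, both in keratinocytes (KCs) and in dendritic epidermal T cells (DETCs). It is described here with 9 other genes of ER protein folding, Hspa5, Hsp90b1, Pdia3, Pdia6, Calr, Canx, Dnajb9, Sdf2l1 and Xbp1, 10 of the 52550 genes in the deposited table. They were chosen by their differences between LC-/- and WT libraries, with Pdia4 lower in both populations. Genotype differences of these 10 genes are therefore given as a description, with no test. Tests are given for their difference between KCs and DETCs of WT mice, which was not used to choose them, and for other genes of the same pathway.

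The mice were female, aged 8 weeks. LC-/- mice, labelled DTA, carry the huLangerin-DTA transgene, in which the human langerin promoter drives diphtheria toxin subunit A, so that LCs are missing from birth. Their WT littermates served as controls, with no treatment in either genotype. KCs and DETCs, the resident γ/δ T cells of mouse epidermis, were sorted from flank skin, which gave 3 WT and 3 LC-/- KC libraries and 3 WT and 2 LC-/- DETC libraries. WT libraries are written W1 to W3 and LC-/- libraries L1 to L3 in the order of the numbers in their labels, and no DETC library carries the number of L1.

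Secreted and membrane proteins fold in the ER. The chaperones Hspa5 (also BiP) and Hsp90b1 bind unfolded chains, the lectins Calr and Canx hold glycoproteins, and the protein disulfide isomerases Pdia3, Pdia4 and Pdia6 form and exchange the disulfide bonds of their clients. When unfolded proteins build up, the sensors IRE1 (gene Ern1), PERK (gene Eif2ak3) and ATF6 start the unfolded protein response, in which ATF6 and the spliced form of XBP1 activate many of these genes through the ER stress element, a promoter motif of CCAAT, 9 bases and CCACG. KCs secrete lipids and proteins of the skin barrier, and DETCs are T cells that store and release cytokines and cytotoxic proteins.

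The ER stress element was searched on both strands of RefSeq promoters (assembly GRCm38.p6, 250 bases before to 50 after the start), where all 10 genes were found. They are shown because ATF6 and XBP1 are known to act on ER genes through this element, so the shares below are a description, with no test. An exact match stood in 5 of the 10 promoters, in 5 of 84 other listed ER genes with a promoter (Creld2, Derl3, Dnajc3, Ero1b and Syvn1) and in 0.119% of all 32851 promoters (39 promoters). Each is written on its own strand with CCAAT and CCACG in capitals.
Hspa5, chr2:34772025-34772043: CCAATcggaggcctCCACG
Hsp90b1, chr10:86705638-86705656: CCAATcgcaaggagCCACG
Hsp90b1, chr10:86705533-86705551: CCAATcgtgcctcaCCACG
Calr, chr8:84847075-84847093: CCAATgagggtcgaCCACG
Canx, chr11:50325800-50325818: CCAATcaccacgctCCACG
Pdia6, chr12:17266491-17266509: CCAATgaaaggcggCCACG

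The element of Calr and the second of Hsp90b1 lay on the strand opposite to the gene, and the others on the strand of the gene. First bases lay between 65 bases (Hspa5) and 212 bases (Hsp90b1) before the start. A search that let 1 of the 10 fixed letters differ was chosen after the data had been seen, and it added Pdia3 and Pdia4, for 7 of the 10 promoters against 15 of the 84 other ER genes and 1.5% of all promoters (494 promoters).
Pdia3, chr2:121413873-121413891: CCAATcggcggctgCCACA
Pdia4, chr6:47813602-47813620: CCAATcacgggctgCCACT

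No such match was found in the windows of Dnajb9, Sdf2l1 and Xbp1. For Dnajb9, a GENCODE transcript held 258 bases before the RefSeq start, so the 250 bases searched before it were transcribed sequence. For Hspa5 and Pdia3 such transcripts held 120 and 127 bases, which include their matches at 65 and 29 bases before the start. No GENCODE transcript of Xbp1 or Pdia4 held the first 50 bases after the start. Where the annotated starts differ, the absence of a match describes the window and not the gene. Pdia4 and Sdf2l1 had the largest log2 differences below 0 of the 10 genes in both populations, and the 250 bases before their starts are shown to set a promoter with a near match beside one without. Pdia4 lies on the minus strand, and its near match is on the opposite strand, so it appears reversed, with its fixed letters in capitals.
Pdia4, chr6:47813513-47813762, minus strand: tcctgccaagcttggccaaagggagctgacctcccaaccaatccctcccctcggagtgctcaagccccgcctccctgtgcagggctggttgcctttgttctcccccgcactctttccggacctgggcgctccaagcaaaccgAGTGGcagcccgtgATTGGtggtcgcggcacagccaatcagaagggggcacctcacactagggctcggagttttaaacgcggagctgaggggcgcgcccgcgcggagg
Sdf2l1, chr16:17132384-17132633, minus strand: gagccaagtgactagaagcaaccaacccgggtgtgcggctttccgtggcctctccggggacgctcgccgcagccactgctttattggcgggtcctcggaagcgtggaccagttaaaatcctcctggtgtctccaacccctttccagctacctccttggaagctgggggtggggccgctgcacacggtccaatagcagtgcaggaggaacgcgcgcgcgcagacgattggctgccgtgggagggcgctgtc

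A related motif, the ER stress element II (ATTGG, 1 base, CCACG), was in 0 of the 10 promoters and in 12 of all promoters, among them those of Dnajb11, a co-chaperone of Hspa5, and Herpud1, of ER-associated degradation. The core of the unfolded protein response element, TGACGTGG, was also in 0 of the 10 and in 222 of all promoters (0.676%). Searched alone, CCAAT was in 9 of the 10 promoters, in 53 of the 84 other ER genes and in 37.4% of all promoters, and CCACG was in 8, in 57 and in 32.8%. A match describes letters in these windows and says nothing of binding.

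The libraries held 13491075 to 19750440 reads assigned to genes. The groups were checked against Cd207, which encodes langerin. It had 6 to 29 reads in WT KCs and 20 to 48 in WT DETCs, and 0 in every LC-/- KC library, 0 in L2 and 4 in L3 of the DETCs. Summed normalized counts of 20 keratinocyte markers were 709851 to 780366 in KC libraries, and those of 18 DETC markers were 290196 to 315492 in DETC libraries. Of these 18, 7 were lower and 3 higher in both LC-/- than in all WT DETC libraries, against 16.5% and 21.3% of all genes tested. The 3 higher were Il2rb, Klrk1 and Cd2. Il2rb had 33888.5 to 43100.8 counts in WT and 50709.2 to 54402.6 in LC-/- DETCs. Klrk1 had 6823 to 7507 and 8241 to 9057, and Cd2 4561 to 5165 and 6095 to 6447. Among those lower were genes of the γ/δ receptor, Trdv4 with 7750 to 11432 counts in WT and 4115 to 5387 in LC-/- DETCs, Tcrg-V5 with 3650 to 5387 and 2738 to 3191, and Trdc with 30304 to 39123 and 23250 to 26887. In the DETC libraries keratinocyte markers stood at a median of 16.2%, 15.3% and 18.9% of their KC level in W1, W2 and W3, and at 25.0% and 17.2% in L2 and L3. DETC markers stood at 0.0034% to 0.023% of their DETC level in KC libraries. Of 13 LC markers, summed counts were 403 to 578 in WT and 219 to 363 in LC-/- KCs, and 2540 to 3524 in WT and 1723 to 1878 in LC-/- DETCs, with Cd209a at 0 throughout. Most of the DETC sum was Mfge8, Cd83, Itgax, Ccr6 and Cd74, so it is no measure of LCs there. Mfge8 had 562 to 604 counts in WT and 506 to 552 in LC-/- DETCs, and Itgax 424 to 515 and 385 to 487. H2-Aa had 51.3 to 81.7 and 4.85 to 9.95. Of 8 markers of α/β T cells, sums were 8028 in one and 17179 in the other LC-/- DETC library, against 11229 to 14035 in WT DETCs. Plasma cells, which are rich in these ER genes, were looked for with 8 B and plasma cell markers. Jchain had at most 2 reads and Mzb1 at most 8 in a library, Ms4a1 had 0, and nearly all of the sum in KCs was Sdc1, which KCs express. In DETCs the sum was 4954 to 5594 in WT and 4936 to 6103 in LC-/- libraries, of which Ighm gave 2797 to 2861 and 2187 to 2479, and Sdc1 most of the rest. In KCs, sums of 8 hair follicle markers were 3724 to 4449 in WT and 4509 to 5398 in LC-/- libraries, without overlap. Of these, Sox9 gave 2936 to 3397 and 3732 to 4573. Lhx2 (457 to 637 and 425 to 522) and Lgr5 (282 to 369 and 281 to 513) overlapped between genotypes. Msx2, at 41.0 to 48.4 and 53.6 to 66.1, did not, and the rest had at most 7 reads in a KC library. Sums of 7 melanocyte markers, mostly Mitf, were 381 to 471 and 293 to 376, also without overlap. Sums for mast cells, sebaceous gland and fibroblasts overlapped between genotypes in KCs. The part of these other cells in the results below was not tested, and in sorted bulk samples fewer cells of a type cannot be told apart from less RNA per cell.

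All 10 genes passed the filter on low counts, which kept 14419 genes. Together they took 0.311% to 0.674% of the reads of a library, and Hspa5 alone gave 38.0% to 55.4% of that share. Per kilobase of exon, Hspa5 had the highest level of the 10 and Sdf2l1 the lowest in all 4 groups, and Calr came second in each. In WT KCs the mean level ran from 4378 normalized counts per kilobase for Hspa5 through 2254 for Calr, 1639 for Pdia3, 1267 for Hsp90b1, 1093 for Canx, 856 for Dnajb9, 537 for Pdia6, 484 for Xbp1 and 404 for Pdia4 to 79.2 for Sdf2l1, with ranges of neighbours that overlapped only between Pdia6 and Xbp1. In WT DETCs the order differed in the middle, where Hsp90b1 (2983) and Pdia3 (2748) overlapped, as did Canx (1447) and Dnajb9 (1295). Pdia4 stood at 666 and Pdia6 at 536 in WT DETCs, with no overlap. In LC-/- DETCs the levels of Pdia4 (450) and Pdia6 (435) overlapped, and Dnajb9 (2045) lay above Canx (1366). Among LC-/- KCs, Canx (1111), Hsp90b1 (1107) and Dnajb9 (1076) could not be ordered, and Xbp1 (637) lay above Pdia6 (477).

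**Figure D1:**
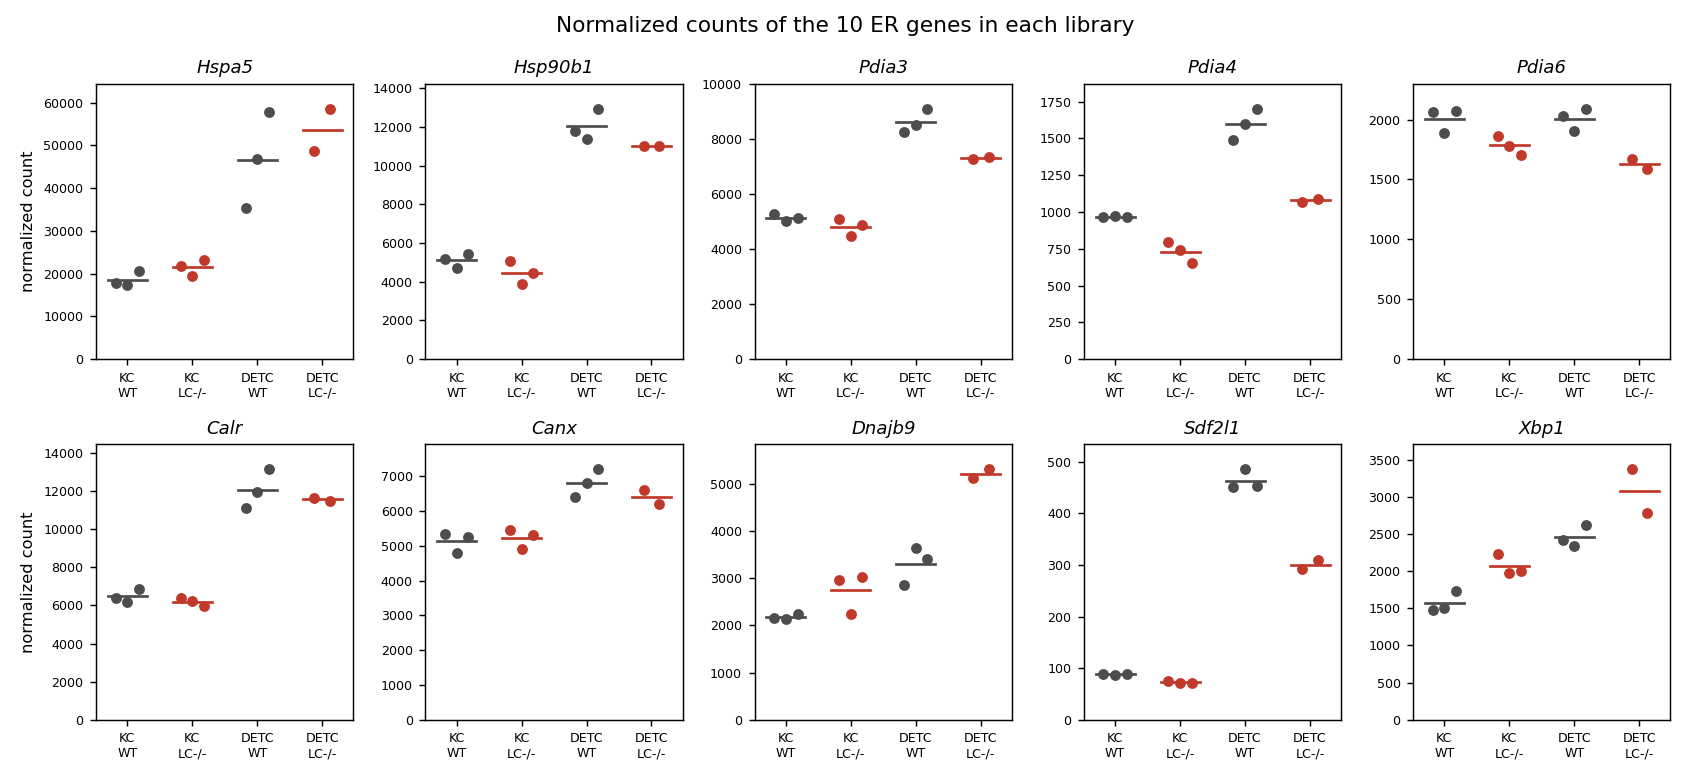
Normalized counts (vertical axes, from 0, a scale of its own for each gene) of the 10 ER genes in every library, with 1 point per library and a line at the group mean, for WT (grey) and LC-/- (red) KCs and DETCs. Pdia4 and Sdf2l1 lie lower and Xbp1 higher in each LC-/- library than in each WT library of the same population, and 9 of the genes, all but Pdia6, lie higher in WT DETCs than in WT KCs.

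Of the isomerases among the 10 genes, Pdia4 had the largest differences between genotypes. Pdia4 lies on chromosome 6 (GRCm38, chr6:47796141-47813430, minus strand). It had 963, 976 and 968 normalized counts in WT KCs W1 to W3, and 795, 741 and 656 in LC-/- KCs L1 to L3. The WT values were within a narrow band (969 ± 6.28, SD, n = 3) and all 3 LC-/- values lay below it (731 ± 70.4, SD, n = 3). In DETCs its counts were 1490, 1598 and 1703 in the WT and 1068 and 1090 in the LC-/- libraries, again without overlap. LC-/- minus WT, the difference of mean log2(normalized count + 1) was -0.41 (SE 0.08) in KCs and -0.56 (SE 0.09) in DETCs. Omission of any 1 library left it between -0.47 and -0.34 in KCs and between -0.61 and -0.52 in DETCs.

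Pdia6, an isomerase that works with Hspa5 and also acts on the sensor IRE1, was at like levels in both populations. Its counts were 2063, 1891 and 2074 in WT and 1863, 1783 and 1708 in LC-/- KCs, and 2032, 1901 and 2092 in WT and 1670 and 1591 in LC-/- DETCs. The genotypes did not overlap in either population, though in KCs the highest LC-/- library lay just below the lowest WT library. The log2 difference was -0.17 (SE 0.05) in KCs and -0.30 (SE 0.09) in DETCs. Pdia3, the isomerase that acts on glycoproteins held by Calr and Canx and that takes part in loading peptides on MHC class I, had 5280, 5023 and 5134 counts in WT and 5103, 4478 and 4885 in LC-/- KCs, which overlapped. In DETCs it had 8255, 8507 and 9114 in WT and 7277 and 7364 in LC-/- libraries, which did not. Its log2 difference was -0.10 (SE 0.06) in KCs and -0.24 (SE 0.09) in DETCs.

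Sdf2l1, a small ER protein found in complexes of Hspa5 with its J-protein co-chaperones, followed Pdia4 in direction. It had 88.1, 86.3 and 89.0 counts in WT and 76.0, 71.3 and 70.4 in LC-/- KCs. In DETCs it had 451, 485 and 452 in WT and 291 and 310 in LC-/- libraries. Neither population had an overlap, and the log2 difference was -0.27 (SE 0.09) in KCs and -0.62 (SE 0.11) in DETCs. Sdf2l1 had the fewest reads of the group, 67 to 103 per KC library and 280 to 588 per DETC library. In KCs the 95% Poisson intervals, which cover counting error only, overlapped between genotypes, from 72.7 to 108 counts in W3 and from 54.6 to 89.4 in L3, whereas in DETCs the lowest WT interval (408 to 496) lay above the highest LC-/- interval (274 to 348).

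The general chaperones had other patterns than Pdia4. Hspa5 had 17734, 17240 and 20571 counts in WT and 21848, 19444 and 23224 in LC-/- KCs, and 35248, 46698 and 57895 in WT and 48746 and 58580 in LC-/- DETCs. Its groups overlapped in both populations, WT DETCs varied with a coefficient of variation of 24.3%, and the log2 difference was 0.22 (SE 0.11) in KCs and 0.23 (SE 0.22) in DETCs. Hsp90b1, the ER member of the Hsp90 family, which folds integrins and Toll-like receptors, had 5170, 4723 and 5428 counts in WT and 5082, 3853 and 4452 in LC-/- KCs. It had 11769, 11378 and 12938 in WT and 10987 and 11022 in LC-/- DETCs. The KC groups overlapped, the DETC groups did not, and the log2 difference was -0.20 (SE 0.12) in KCs and -0.13 (SE 0.10) in DETCs. Of the exon bases of Hsp90b1, 10.3% are shared with the antisense gene 1810014B01Rik, whose reads cannot be told apart here because the strand setting of the counting is not stated.

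The lectin chaperones were near the same level in both genotypes. Calr, the soluble one, had 6394, 6207 and 6870 counts in WT and 6376, 6242 and 5995 in LC-/- KCs, and 11143, 11945 and 13144 in WT and 11622 and 11509 in LC-/- DETCs. Canx, its membrane-bound relative, had 5340, 4804 and 5242 in WT and 5442, 4901 and 5303 in LC-/- KCs, and 6388, 6795 and 7194 in WT and 6613 and 6204 in LC-/- DETCs. Both genes overlapped between genotypes in both populations. Log2 differences were -0.06 (SE 0.05) and -0.06 (SE 0.11) for Calr and 0.02 (SE 0.06) and -0.08 (SE 0.09) for Canx, in KCs and DETCs in that order, and Canx was the only gene of the 10 whose sign differed between populations.

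The 2 genes that the IRE1 branch is known for stood on the other side. Xbp1, its transcription factor, had 1484, 1502 and 1730 counts in WT and 2230, 1978 and 2003 in LC-/- KCs, and 2414, 2344 and 2623 in WT and 3370 and 2781 in LC-/- DETCs. Every LC-/- library was above every WT library of its population, and the log2 difference was 0.40 (SE 0.08) in KCs and 0.32 (SE 0.11) in DETCs. Reads of the spliced and the unspliced form of Xbp1 are counted together, so the share that IRE1 had spliced was not analysed here. Dnajb9, a J-protein of Hspa5 that is a target of spliced XBP1 and restrains IRE1, had 2156, 2139 and 2250 counts in WT and 2966, 2238 and 3021 in LC-/- KCs. In DETCs it had 2857, 3647 and 3401 in WT and 5116 and 5307 in LC-/- libraries. KC library L2 lay within the WT range and the other LC-/- libraries above it, with a log2 difference of 0.32 (SE 0.13) in KCs and 0.67 (SE 0.11) in DETCs.

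**Figure D2:**
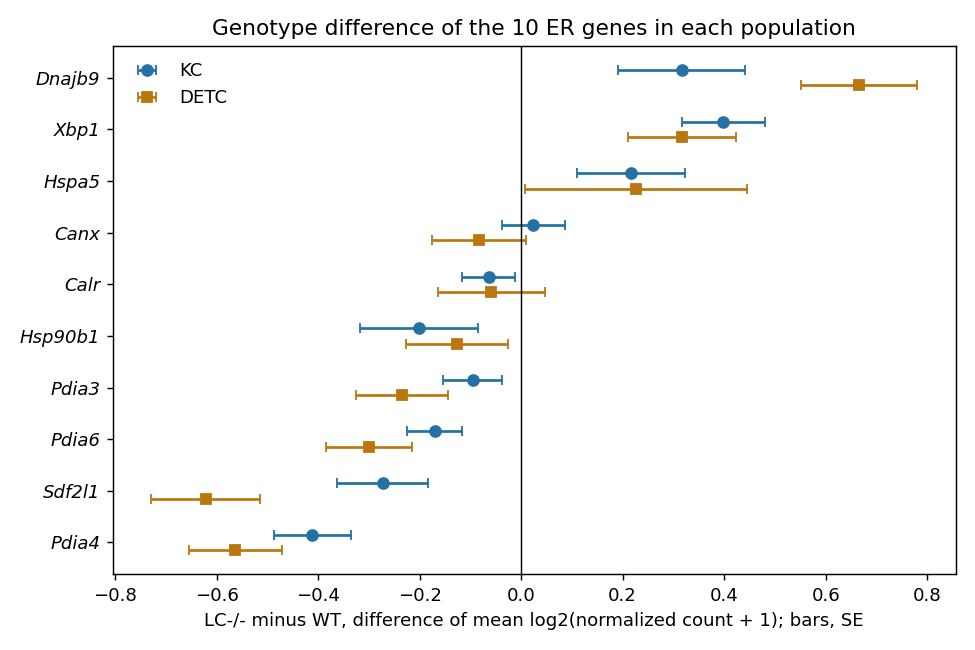
Difference of mean log2(normalized count + 1), LC-/- minus WT (horizontal axis), for the 10 ER genes in KCs (blue circles, 3 libraries against 3) and DETCs (orange squares, 3 WT against 2 LC-/- libraries), with bars of 1 SE. Pdia4 is at -0.41 and -0.56, Dnajb9 at 0.32 and 0.67, and 9 of the 10 genes have the same sign in both populations.

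Counted over the group, 3 genes in KCs (Pdia4, Pdia6 and Sdf2l1) were lower in all LC-/- libraries than in all WT libraries, against 14.9% of all genes tested, 1 gene (Xbp1) was higher, against 16.6%, and 6 overlapped. In DETCs 5 genes (Hsp90b1, Pdia3, Pdia4, Pdia6 and Sdf2l1) were lower without overlap, against 16.5%, 2 genes (Dnajb9 and Xbp1) were higher, against 21.3%, and 3 overlapped. In DETCs 3 libraries face 2, where separation by chance is more frequent, but the cause of the larger DETC percentages was not tested. Since these contrasts chose the genes, nothing is read from the counts. Their median log2 difference was -0.08 in KCs and -0.10 in DETCs, where that of all genes tested was -0.01 and 0.02. Under quantile normalization, which forces 1 distribution on all libraries, values of these abundant genes shifted downward in most cases: Pdia4 was at -0.45 and -0.67, but Hspa5 was at 0.04 in KCs and -0.02 in DETCs, and Canx at -0.15 in KCs, so the signs of Hspa5 in DETCs and of Canx in KCs depended on the scaling.

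Within a library, ratios between 2 genes do not depend on the size factor. Per 100 counts of Hspa5 there were 4.71 to 5.66 of Pdia4 in WT and 2.82 to 3.81 in LC-/- KCs, and 2.94 to 4.23 in WT and 1.86 to 2.19 in LC-/- DETCs. Sdf2l1 stood at 0.433 to 0.50 per 100 of Hspa5 in WT and 0.303 to 0.366 in LC-/- KCs, and at 0.781 to 1.28 in WT and 0.528 to 0.598 in LC-/- DETCs. Dnajb9 relative to Pdia4 was the ratio with the most even WT values across populations, at 2.19 to 2.32 in KCs and 1.92 to 2.28 in DETCs. In LC-/- libraries it was 3.02 to 4.61 in KCs and 4.79 to 4.87 in DETCs. None of the 3 ratios overlapped between genotypes within a population. Since genotype differences chose these genes, nothing is read from this separation, and no share over other pairs of genes was computed. Such ratios show unequal change, not which of the genes changed.

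**Figure D3:**
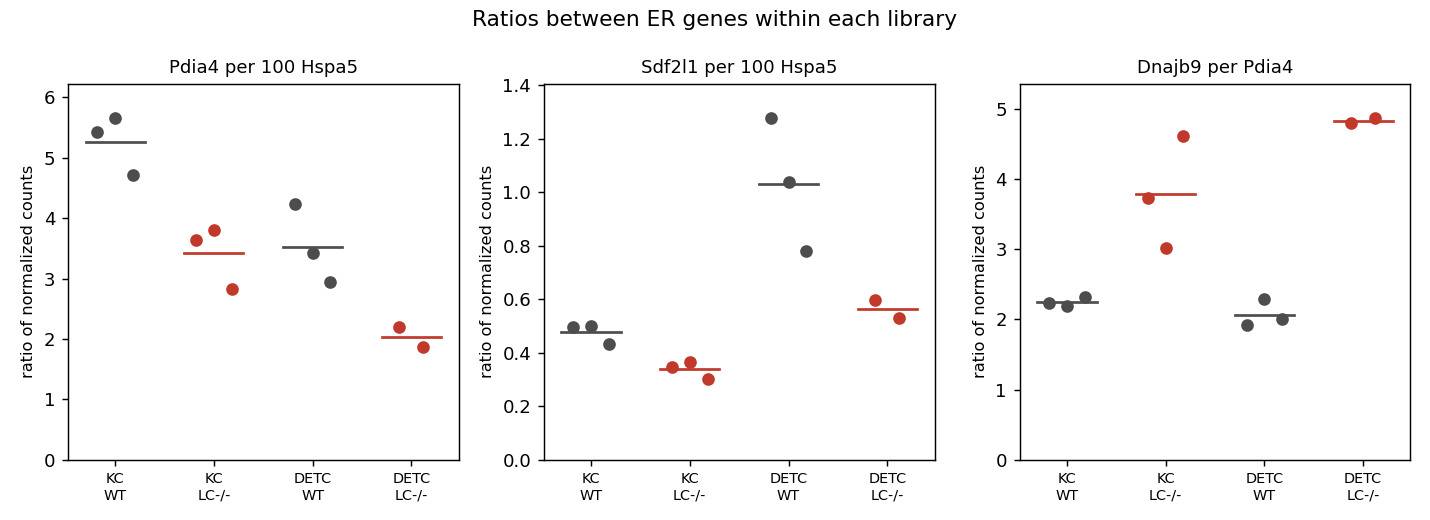
Ratios of normalized counts within each library (vertical axes, from 0) for Pdia4 per 100 Hspa5, Sdf2l1 per 100 Hspa5 and Dnajb9 per Pdia4, with 1 point per library and a line at the group mean, in WT (grey) and LC-/- (red) KCs and DETCs. WT libraries of both populations have 1.92 to 2.32 Dnajb9 counts per Pdia4 count and LC-/- libraries 3.02 to 4.87.

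Whether the genotype difference itself differed between the populations is given as a value with its interval, with no test. For Pdia4 the difference in DETCs minus that in KCs was -0.15 on the log2 scale (95% interval -0.42 to 0.12). It was 0.35 for Dnajb9 (-0.03 to 0.73) and -0.35 for Sdf2l1 (-0.69 to -0.003), the 2 that lay farthest from 0 among the 10 genes. For the other 7 it lay between -0.14 (Pdia3) and 0.08 (Hsp90b1), with intervals that held 0.

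The pattern of Pdia4 over the 11 libraries was compared with that of each of the other 14418 genes tested, by the root mean square difference of log2 values after the WT mean of the same population had been taken off. The 5 closest were Tmem260 (0.064), Adprh (0.068), Snap47 (0.081), Aven (0.086) and Poglut1 (0.088). All 5 had lower means in LC-/- libraries of both populations, for instance Tmem260 with 297 counts in WT and 229 in LC-/- KCs and 407 and 289 in DETCs. Poglut1, an ER enzyme that adds glucose to Notch, had 276 and 199 counts in KCs and 262 and 189 in DETCs. Sdf2l1 came at place 11 (0.10) and Pdia6 at place 302 (0.182), while Hspa5 (place 9740), Xbp1 (place 11393) and Dnajb9 (place 12603) were far from it. The distance includes the genotype difference that chose Pdia4.

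DETCs of WT mice had more of these transcripts than KCs. Of the 10 genes 9 were higher at an adjusted p under 0.05 and 0 were lower, also by edgeR and DESeq2, against 41.0% of all genes tested that were higher and 35.1% that were lower (limma with Benjamini-Hochberg adjustment over 14419 genes). Sdf2l1 had the largest difference, with 88.1, 86.3 and 89.0 counts in KCs and 451, 485 and 452 in DETCs, 2.38 on the log2 scale (SE 0.10, adjusted p = 2.43e-08). Hspa5, at 18515 ± 1797 in KCs and 46614 ± 11323 in DETCs (SD, n = 3 each), differed by 1.31 (SE 0.18, limma adjusted p = 0.00011), and Hsp90b1, at 5107 ± 357 and 12029 ± 812, by 1.24 (SE 0.09, limma adjusted p = 9.01e-07). The other 6 genes that were higher, Calr (0.89), Pdia3 (0.74), Pdia4 (0.72), Xbp1 (0.65), Dnajb9 (0.59) and Canx (0.41), had no overlap between the populations, and their limma adjusted p lay between 9.25e-06 (Pdia4) and 0.00114 (Canx). The median over the 10 genes was 0.73, that over all genes tested 0.07.

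Pdia6 was the exception. It had 2009 ± 102 counts in WT KCs and 2008 ± 97.4 in WT DETCs (SD, n = 3 each), a log2 difference of -0.00 with a 95% interval of -0.16 to 0.16 (limma adjusted p = 0.995). A difference as large as that of Pdia4 (0.72) lies outside this interval. Quantile normalization moved the median of all genes from 0.07 to -0.24, and with it Pdia6 to -0.27 (limma adjusted p = 0.00358) and Canx to 0.10 (limma adjusted p = 0.145), so their calls depended on the scaling. The other 8 genes stayed higher under every alternative. WT DETC libraries held keratinocyte markers at 15.3% to 18.9% of their KC level, whose part in these values was not tested.

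**Figure D4:**
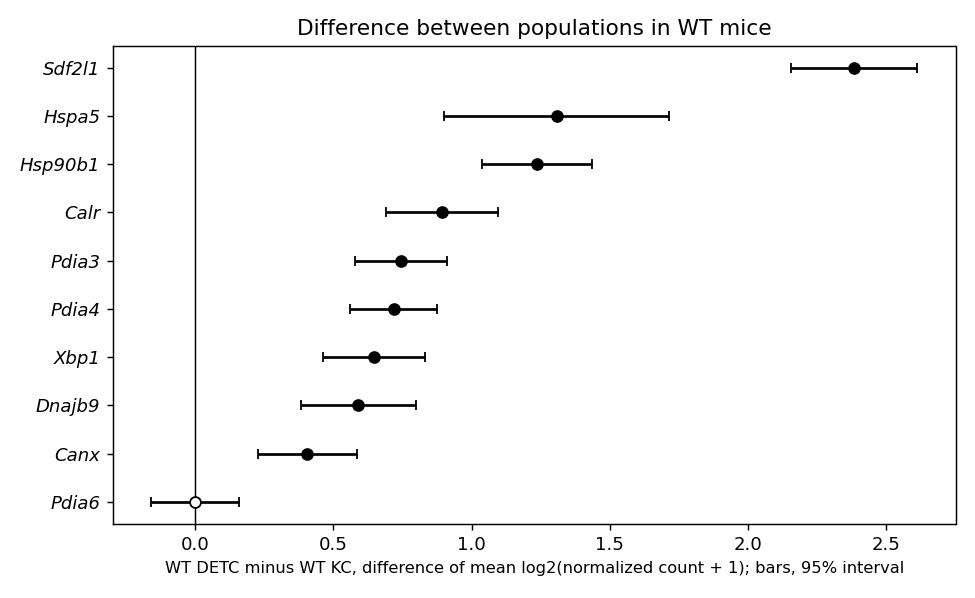
Difference of mean log2(normalized count + 1), WT DETC minus WT KC (horizontal axis), for the 10 ER genes, 3 libraries against 3, with 95% intervals from limma. Filled points have an adjusted p under 0.05 and the open point, Pdia6, does not; Sdf2l1 is at 2.38 and Pdia6 at -0.00.

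Other genes of the ER were read from 6 lists with 105 genes, 96 of them tested, and their genotype differences were tested. In KCs 8 rose and 1 fell, against 5.37% of all genes that rose and 1.85% that fell. In DETCs 3 rose and 0 fell, against 3.13% and 0.43%. For the 0 that fell in DETCs, limma gave 13 genes below 0 at an unadjusted p under 0.05, edgeR called 0 and DESeq2 called 4.

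Most of the KC calls were in the list of sensors and transcription factors of the unfolded protein response, of which 5 of 16 tested rose and 0 fell (limma, with 2 below 0 at an unadjusted p under 0.05 and 0 by edgeR and DESeq2). Ern1, the sensor IRE1 that splices Xbp1, had 618, 690 and 722 counts in WT and 1053, 1128 and 1075 in LC-/- KCs, a log2 difference of 0.68 (SE 0.07, limma adjusted p = 0.0193). Atf6, the sensor that is cut to a transcription factor, had 1463 to 1622 counts in WT and 1919 to 2191 in LC-/- KCs and rose by 0.46 (SE 0.07, limma adjusted p = 0.0315). Ddit3, a transcription factor of prolonged ER stress, rose by 0.45 (SE 0.06, limma adjusted p = 0.0252), Atf4, which is translated when PERK is active, by 0.39 (SE 0.07, limma adjusted p = 0.0428), and Ppp1r15b, a phosphatase subunit that reverses the action of PERK, by 0.35 (SE 0.05, limma adjusted p = 0.0285). Under quantile normalization Atf4 was at 0.16 (limma adjusted p = 0.132) and Ppp1r15b at 0.15 (limma adjusted p = 0.0824), with no call, while Ern1 (0.64), Ddit3 (0.54) and Atf6 (0.36) were still called. The most abundant of the list, Atf3 and Ppp1r15a, gave 0.14 (SE 0.11, limma adjusted p = 0.476) and 0.23 (SE 0.08, limma adjusted p = 0.141). The list had a median of 0.21, with 10 genes above 0 and 6 below, where all genes tested had -0.01.

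Of the 8 ER genes that rose in KCs, 5 were still called without L2 (Atf6, Ddit3, Ern1, Ppp1r15b and Ube2j2), 1 without W3 (Ern1), and 0 without W1, W2, L1 or L3, while the log2 difference of Ern1 stayed between 0.62 and 0.73. In DETCs 0 genes of that list were called by limma or edgeR, 4 were above 0 at an unadjusted p under 0.05, and DESeq2 called 3 higher. There Ern1 was at 0.22 (SE 0.11, limma adjusted p = 0.350) and Atf6 at -0.09 (SE 0.09, limma adjusted p = 0.622).

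**Figure D5:**
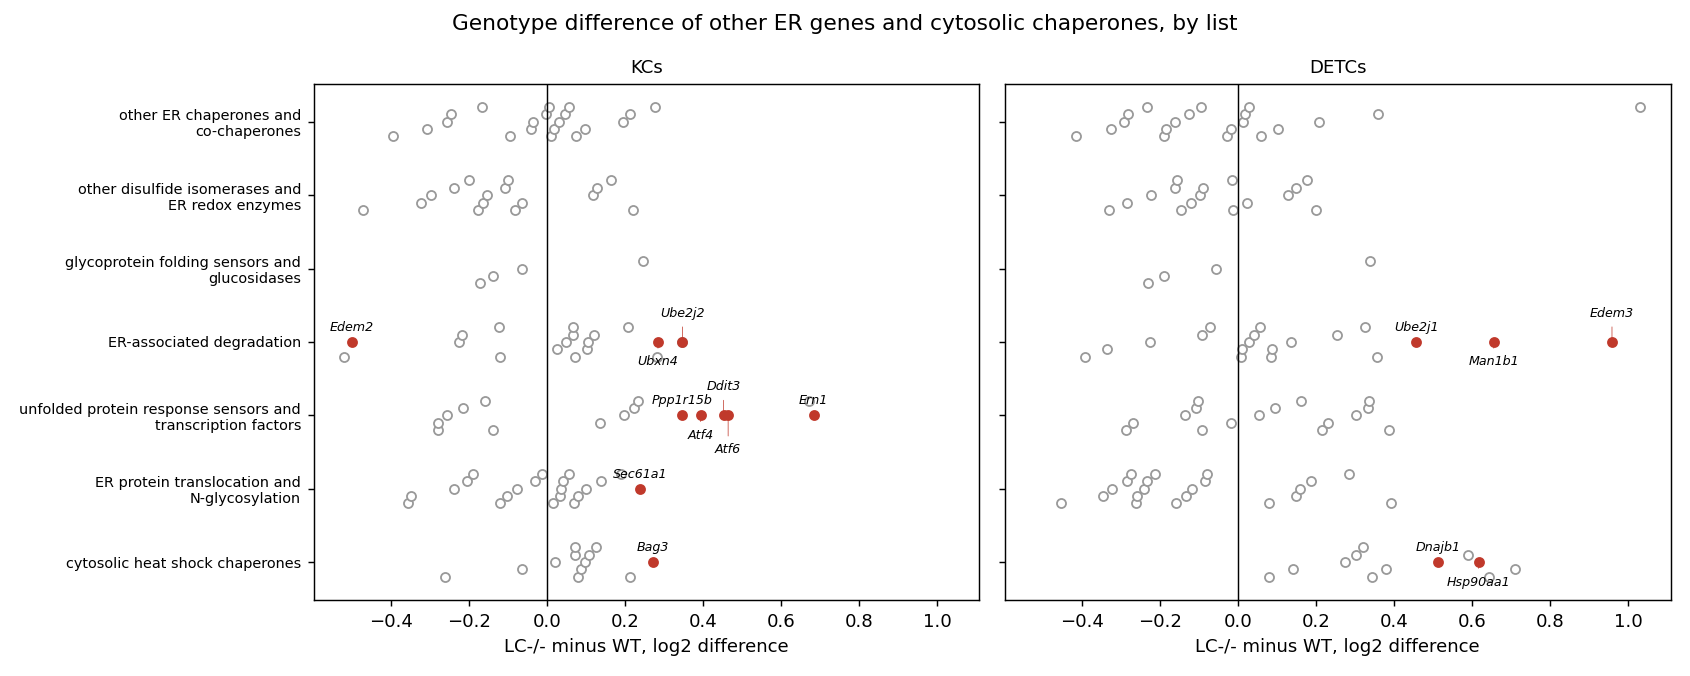
Log2 difference, LC-/- minus WT (horizontal axis), of each tested gene of 6 ER lists and of a list of cytosolic heat shock chaperones (rows), in KCs (left) and DETCs (right), with 1 point per gene. Filled red points with a name have an adjusted p under 0.05. In KCs 5 of 16 genes of the unfolded protein response list are filled, and in DETCs 3 of 19 genes of ER-associated degradation. The lists of other ER chaperones and of other isomerases have none. The cytosolic list has 1 in KCs and 2 in DETCs.

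ER-associated degradation, which takes misfolded proteins out of the ER for destruction, had 19 genes tested. In DETCs 3 of them rose and 0 fell (limma, with 1 below 0 at an unadjusted p under 0.05 and 0 by edgeR and DESeq2). Edem3, a mannosidase that marks glycoproteins for removal, had 2559, 3007 and 2971 counts in WT and 5368 and 5663 in LC-/- DETCs, a log2 difference of 0.96 (SE 0.10, limma adjusted p = 0.00985). Man1b1, another mannosidase, rose by 0.66 (SE 0.13, limma adjusted p = 0.0409), and Ube2j1, a ubiquitin-conjugating enzyme of the ER membrane, by 0.46 (SE 0.09, limma adjusted p = 0.0426). Edem3 kept its call in the omission of any 1 DETC library. Man1b1 lost its call without W2, W3 or L2, and Ube2j1 without W2, W3, L2 or L3, with log2 differences that stayed between 0.50 and 0.81 and between 0.41 and 0.49. Under quantile normalization Edem3 was at 0.74, Man1b1 at 0.44 and Ube2j1 at 0.19, and Edem3 alone of them was called. In KCs 2 genes of the list rose, Ube2j2 by 0.35 (SE 0.05, limma adjusted p = 0.0251) and Ubxn4 by 0.28 (SE 0.06, limma adjusted p = 0.0468), and 1 fell, Edem2, by 0.50 (SE 0.10, limma adjusted p = 0.0464). Ubxn4 (0.18) and Edem2 (-0.44) had no call under quantile normalization. The abundant Vcp, which pulls substrates from the membrane, had 0.07 in KCs and 0.13 in DETCs with no call. Medians of the list were 0.07 in KCs and 0.06 in DETCs.

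The difference between populations in the genotype effect was called for 3 of the 96 genes, against 0.798% of all genes tested. Edem3 rose more in DETCs, with an interaction of 0.88 (SE 0.13, limma adjusted p = 0.0112). Herpud1, a membrane protein of ER-associated degradation, had an interaction of 0.88 (SE 0.15, limma adjusted p = 0.0190), with 1223, 1093 and 1078 counts in WT and 823, 875 and 678 in LC-/- KCs and 4319, 4604 and 4887 in WT and 5674 and 6104 in LC-/- DETCs. Neither of its own genotype differences passed the threshold (limma adjusted p = 0.0572 and 0.0818), though its groups did not overlap in either population. Atf6 had an interaction of -0.56 (SE 0.11, limma adjusted p = 0.0473). Edem3 kept this call with a replicate block and in the omission of any 1 library. Herpud1 lost it with the block (0.91) and without KC library W1 (0.82), DETC library L2 (0.93) or DETC library L3 (0.82). Atf6 lost it with the block (-0.53) and without any 1 library other than KC library L2 (-0.61 to -0.52).

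The lists closest in function to the 10 genes held no call. Of 20 other ER chaperones and co-chaperones tested, limma called 0 in either population, with medians of 0.01 in KCs and -0.06 in DETCs. At an unadjusted p under 0.05 there were 2 above and 2 below 0 in KCs and 1 above and 3 below in DETCs, edgeR called 0, and DESeq2 called 2 lower in DETCs (Creld2 and Dnajb11, named after their values were seen). Their most abundant genes were Hyou1, an exchange factor of Hspa5, at 0.21 (SE 0.06, limma adjusted p = 0.101) in KCs and -0.16 (SE 0.09, limma adjusted p = 0.40) in DETCs, and Dnajc3, a co-chaperone, at 0.05 and -0.02. Of 16 other disulfide isomerases and redox enzymes limma called 0, with medians of -0.13 and -0.09. Below 0 lay 12 of them in KCs and 11 in DETCs, against 7471 and 6865 of the 14419 genes tested. At an unadjusted p under 0.05 there were 1 above and 2 below 0 in KCs and 0 above and 2 below in DETCs, edgeR called 1 lower in KCs (Txndc12, named after its value was seen), and DESeq2 called 0. P4hb, the most abundant isomerase of that list, had -0.08 (SE 0.04) in KCs and 0.20 (SE 0.10) in DETCs (limma adjusted p = 0.223 and 0.342). Txndc11 had 0.22 and 0.15 and was higher without overlap in both populations. Named after their values were seen, Txndc12 (-0.47 and -0.33), Dnajc10 (-0.30 and -0.28), Tmx1 (-0.32 and -0.12) and Tmx2 (-0.10 and -0.16) were lower without overlap in both. Of all genes tested, 14.9% in KCs and 16.5% in DETCs were lower without overlap, and 16.6% and 21.3% higher. The share without overlap in both populations was not computed, so nothing is read from these genes. The 4 glucosidases and folding sensors tested, among them Uggt1, which returns unfolded glycoproteins to Calr and Canx, and Ganab, had 0 calls by limma, edgeR and DESeq2 and medians of -0.10 and -0.12, with 1 above and 2 below 0 in KCs and 1 and 1 in DETCs at an unadjusted p under 0.05. Of 21 genes of translocation and N-glycosylation 1 rose in KCs, Sec61a1, the channel subunit, by 0.24 (SE 0.05, limma adjusted p = 0.0462, and 0.12 with no call under quantile normalization), and 0 in DETCs by limma and edgeR, where 2 were above and 6 below 0 at an unadjusted p under 0.05 and DESeq2 called 1 higher and 2 lower. Medians were 0.02 and -0.16. Ssr1 and Stt3b, the most abundant of that list, were not called in either population.

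Between WT DETCs and WT KCs, 69 of the 96 genes of the 6 lists were higher and 15 lower in DETCs, with a median of 0.53, against 41.0% and 35.1% of all genes tested and their median of 0.07. Other disulfide isomerases were higher for 14 of 16 genes and lower for 2, other chaperones for 13 and 4 of 20, translocation and N-glycosylation for 17 and 2 of 21, and ER-associated degradation for 15 and 1 of 19. Sensors and transcription factors were split, with 7 higher and 6 lower of 16. Atf6 was higher in DETCs by 2.48 and Atf3 lower by a log2 difference of -2.10.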

How the data were processed

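Poly-A RNA of flow-sorted KCs and DETCs was sequenced in 11 libraries. The authors used cutadapt for trimming, hisat2 for alignment to GRCm38 and featureCounts for counts per gene (annotation, strand setting and versions are not given in the sources used here). DESeq2 and GRCm38 are named in the submitters' processing notes. The deposited values are a signal per gene, the authors' counts divided by a size factor of the library, with no log transformation and no filter. Groups came from the condition and population in the labels.

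Each value was divided by the smallest step of its library, which recovered whole reads for 100% of values within 0.01 reads. Symbols and exon lengths came from GENCODE mouse release 21 (GRCm38), which held 52403 of the 52550 identifiers. As in the study, genes with a CPM above 1 in at least 2 libraries were kept. This left 14419 genes, fewer than the study reports after its filter, and the cause was not tested. On log2 of the normalized count plus 1, limma 3.58.1 (eBayes with trend, Benjamini-Hochberg, R 4.3.3) compared genotypes within KCs and within DETCs, populations within WT, and the genotype effects of the populations by an interaction. An adjusted p under 0.05 was called. The study describes its libraries as separate animals, and whether KC and DETC libraries with the same number came from the same mouse is not stated in the labels. Alternatives were edgeR 4.0.16 and DESeq2 1.42.0 on the recovered reads, pseudocounts, filters, quantile normalization, size factors within the fit, no trend, all 11 libraries in 1 fit, a replicate block, the LC-/- libraries for the population contrast, and omission of each library. Each test was tested on simulated data first.

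The 10 genes and all lists were chosen with earlier results of these data known. Named genes were the 10, listed genes called in a genotype comparison or interaction, the 2 most abundant genes of each list, markers, Cd207 and the 5 genes most like Pdia4. Promoters were RefSeq's. Of the columns with values, 0 were left unused.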

Additional observations from a re-analysis of the deposited data

Results flagged for a closer look

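For 3 genes of the ER lists the difference between LC-/- and WT libraries differed between the populations, by the interaction term of limma over all 11 libraries. For Edem3, a mannosidase of ER-associated degradation, the log2 difference in DETCs minus that in KCs was 0.88 (SE 0.13, adjusted p = 0.0112), with 0.96 in DETCs and 0.07 in KCs. Herpud1, which acts in the same process, had 0.88 (SE 0.15, adjusted p = 0.0190), with 0.36 in DETCs and -0.52 in KCs. For Atf6, a sensor of the unfolded protein response, it was -0.56 (SE 0.11, adjusted p = 0.0473), with -0.09 in DETCs and 0.46 in KCs. With a replicate block Herpud1 and Atf6 were no longer called (adjusted p = 0.0857 and 0.190 by limma), while Edem3 was. Herpud1 also lost its call without KC library W1 (difference 0.82), DETC library L2 (0.93) or DETC library L3 (0.82). Atf6 kept its call when KC library L2 was left out (-0.62) and lost it when any other single library was left out, with differences from -0.61 to -0.52. Groups of 4 or more libraries, which a check for single outlying libraries needs, do not occur in the design.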

How the results depend on the processing

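Pdia4 was lower in LC-/- than in WT libraries of both populations under every alternative, Sdf2l1 and Pdia6 likewise, and Xbp1 and Dnajb9 were higher under each. Omission of 1 library turned the small value of Canx in KCs (-0.02 without 1 library) and of Calr in DETCs (0.004). Counts of called genes moved most. For genes that rose and fell in KCs (775 and 267), edgeR gave 1192 and 591, DESeq2 1211 and 546, a mean of at least 10 gave 1165 and 575, quantile normalization gave 419 that rose, no trend 508 that rose, and no filter 536 that fell. Of the ER lists in KCs (8 and 1), quantile normalization left 4 and no trend 5 that rose, and edgeR, DESeq2, no filter, a mean of at least 10, all 11 libraries and no trend gave 4, 3, 3, 4, 4 and 0 that fell. In DETCs (452 and 62), DESeq2 gave 873 and 207, all 11 libraries 834 and 125, quantile normalization 178 that rose, and no trend 0 and 0, where 1554 and 853 had an unadjusted p under 0.05. Of the ER lists in DETCs (3 and 0), DESeq2 gave 8 and 4, all 11 libraries 7 and 1, quantile normalization 1 and no trend 0 that rose. Between the populations of WT mice, quantile normalization called 1 of the 10 genes lower (Pdia6), and Dnajb1, at -0.36 in WT, was at 0.067 in the LC-/- libraries, with no call. For the interaction (89 and 26), DESeq2 gave 234 and 74, no trend 19 and 3, no filter 17 and quantile normalization 48 below 0. Of its 3 calls in the ER lists, no trend kept 0, no filter 0 of those below 0.

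Without 1 library, calls ranged from 5 to 552 that rose and 0 to 169 that fell in KCs, and from 29 to 478 and 0 to 112 in DETCs. For the ER lists they were 0 to 6 and 0 to 1 in KCs, and 1 to 3 and 0 to 0 in DETCs. For DETC minus KC they ranged from 5647 to 5831 and 4735 to 4998 over all genes, 65 to 69 and 14 to 15 over the ER lists, and 9 to 9 and 0 to 0 over the 10 genes. For the interaction they were 25 to 117 and 3 to 29, and 1 to 2 and 0 to 1 in the ER lists. In KCs the fewest calls came without L1, and in DETCs without L2, which left 1 LC-/- library that is assumed to vary like the WT libraries. The cause of these changes was not tested.

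Libraries share numbers between populations. Correlations of their deviations from group means were -0.06 (W1), 0.07 (W2), 0.12 (W3), 0.16 (L2) and 0.13 (L3) over 14039 genes. These values cannot show whether libraries with the same number came from the same mouse. The main fits did not take the numbers as pairs. With a replicate block the interaction had 23 and 4 calls, 1 and 0 in the ER lists (Edem3), and DETC minus KC in WT had 5858 and 5015 calls, with the calls of the 10 genes unchanged. Depth limits Sdf2l1 in KCs, where 67 to 103 reads were counted.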

Other observations

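Chaperones of the cytosol were read from a list of their own. Of 12 cytosolic heat shock chaperones tested, all 12 had a log2 difference above 0 in DETCs, LC-/- minus WT, with a median of 0.36, where 7554 of the 14419 genes tested were above 0 and their median was 0.02. Under quantile normalization 10 of the 12 were above 0, with a median of 0.17. Hsp90aa1, the stress-induced cytosolic Hsp90, had 12364, 13321 and 15110 normalized counts in WT and 20547 and 21003 in LC-/- DETCs and rose by 0.62 (SE 0.12, limma adjusted p = 0.0340). Dnajb1, a J-protein of Hsp70, rose by 0.51 (SE 0.11, limma adjusted p = 0.0475). The other 10 were not called by limma, which called 3.13% of all genes tested higher in DETCs. At an unadjusted p under 0.05, 8 of the 12 were above 0, against 1882 of the 14419 genes tested. DESeq2 called 5 of the 12 higher, against 873 of all genes tested. Without L2 neither Hsp90aa1 (0.63, limma adjusted p = 0.174) nor Dnajb1 (0.47, limma adjusted p = 0.235) kept its call. Under quantile normalization Hsp90aa1 was at 0.31 (limma adjusted p = 0.105) and Dnajb1 at 0.24 (limma adjusted p = 0.157), also with no call. In KCs 10 of the 12 were above 0, with a median of 0.08, but 3 of the 12 under quantile normalization, with a median of -0.07. Bag3, a co-chaperone of Hsp70, was the only one called in KCs (0.27, SE 0.05, limma adjusted p = 0.0377), and had 0.15 with no call under quantile normalization. Of all genes tested, 5.37% were called higher in KCs. The abundant Hspa8 and Hsp90ab1 had 0.38 and 0.27 in DETCs and 0.11 and 0.07 in KCs, with no call. Between WT DETCs and WT KCs, 5 of the 12 were higher in DETCs and 3 lower, against 41.0% and 35.1% of all genes tested.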
